A study of Mus musculus with 16 samples.

Results

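A set of 9 fat-cell genes was followed through RNA sequencing of mouse gastrocnemius, the large calf muscle. They are Adipoq, Lep, Retn, Cfd, Plin1, Cidec, Fabp4, Scd1 and Cyp2e1, found by their symbols among the 35415 genes of the count and FPKM tables. They were selected on measured values, since their levels in these same libraries were known when the list was drawn up, so their group differences are given as descriptions. All 9 were among the 14749 genes that had enough counts to be tested. There was no threshold in the choice, so there are no near misses to list.

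The 16 libraries came from 16 male BALB/c mice that were wild type and 8 weeks old at purchase, with 4 sequenced of the 12 mice in each group. The C group received saline and stood on a treadmill that did not move, and the E group received saline and ran for 4 weeks. The T group was injected under the skin of the left hind limb region with CT26, a colon carcinoma line from the same strain, and stood on the treadmill that did not move. The TE group was injected with CT26 and ran. Running was at 14 m/min for 60 min on 6 days/week. The tumor is a transplanted cell line rather than one that arose in the animal, and whether the sampled muscle lay on the side of the tumor is not given in the sources used here. All libraries carried batch number 1, each mouse was a separate animal, and totals ran from 35628211 to 37635741 counts. Skeletal muscle fiber genes made up 109683 to 133222 CPM (counts scaled to a common library size) in every library, with all 10 of the listed genes detected, as the tissue label says. Duplicate reads from amplification were counted like any other read.

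White adipocytes store triglyceride in a single large lipid droplet and release hormones into the blood. Skeletal muscle holds such cells between its bundles and around its sheath, and a dissected muscle carries some of them along. Adiponectin (Adipoq), leptin (Lep) and resistin (Retn) are hormones made mainly by fat cells in mice, and adipsin (Cfd) is the protease that starts the alternative complement pathway. Perilipin 1 (Plin1) coats the droplet and holds back lipolysis, and Cidec lets droplets fuse. Fabp4 carries fatty acids in the cytosol and is also made in capillary endothelium and macrophages, Scd1 puts the double bond into newly made fatty acids, and Cyp2e1 is an oxidase best known from liver that is also abundant in mouse fat. In RNA from whole muscle, fewer adipocytes and less RNA per adipocyte cannot be told apart.

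The 9 genes lie on 7 chromosomes of the GRCm39 build, Lep and Cidec both on chromosome 6 and Plin1 and Cyp2e1 both on chromosome 7. In the GENCODE annotation Adipoq is at chr16:22964106-22976810, Lep at chr6:29060216-29073877, Retn at chr8:3705324-3710689, Cfd at chr10:79726668-79728496 and Cyp2e1 at chr7:140343652-140355167, all on the plus strand. Plin1 is at chr7:79369966-79382718, Cidec at chr6:113400691-113412721, Fabp4 at chr3:10268785-10273737 and Scd1 at chr19:44382894-44399154, all on the minus strand. All are protein-coding genes of 3 to 9 exons. The strand setting of the counting is not given in the sources used here, and 5 of the 9 overlap a gene on the opposite strand. Exonic bases of the member inside the span of that partner were 987 in Adipoq, 717 in Cidec and 1360 in Fabp4. Whether they meet exons of the partner was not examined, so whether reads of the partners were counted with these genes is not known. Scd1 shared at most 2.25% of its 50-base stretches with any of its paralogs Scd2, Scd3 and Scd4.

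Because most of these genes moved together across the libraries, their promoters were read for the site of C/EBP, a transcription factor of fat-cell differentiation. RefSeq promoters (GRCm38.p6 table, each sequence found once in GRCm39) were matched for 7 of the 9, with Fabp4 and Scd1 unmatched. The motif TTGCNNAA, on either strand within 250 bases before the start, was present in 3 of the 7 (Lep, Plin1 and Cidec) and in 9.56% of 32851 promoters. The 4 matches are shown in GRCm39 coordinates and in the direction of the gene, with the motif in capitals.
Lep, chr6:29060155-29060182, plus strand: ggccggacagTTGCGCAAgtggcactgg
Plin1, chr7:79382565-79382592, minus strand: ctgagaggcaTTGCCCAAgattccctgg
Plin1, chr7:79382694-79382721, minus strand: cacctctttaTTGCCTAAacatccccca
Cidec, chr6:113411906-113411933, minus strand: gagggctctaTTGCTCAAgggcccatgg
The motif began 55 bases before the RefSeq start in Lep, 58 and 187 bases before it in Plin1, and 198 bases before the later of the RefSeq starts of Cidec. The Plin1 and Cidec motifs lie inside the GENCODE gene records, which begin farther upstream. Searched in the same way, TATAAA was found in 1 of the 7 (Cyp2e1) and in 12.4% of all promoters. The direct repeat DR1 that PPARG-RXR reads (0.338% of promoters), the sterol element TCACNCCAC (1.05%) and the E-box CACGTG (6.02%) were in 0 of the 7. A match is a string of letters and not a binding site, and the absence of one says only that these letters are not in these windows.

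The windows of the best-known pair of fat hormones are given in full to show one promoter with the C/EBP motif and one without it. The Lep window ends at the base before the gene, and the Adipoq window lies inside the GENCODE gene record but in no annotated exon.
Lep, chr6:29059970-29060215, plus strand: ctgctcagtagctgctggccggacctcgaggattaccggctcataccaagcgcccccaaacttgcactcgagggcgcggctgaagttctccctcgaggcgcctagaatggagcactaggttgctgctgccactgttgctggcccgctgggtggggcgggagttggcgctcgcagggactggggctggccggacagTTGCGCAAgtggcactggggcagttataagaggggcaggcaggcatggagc
Adipoq, chr16:22965036-22965285, plus strand: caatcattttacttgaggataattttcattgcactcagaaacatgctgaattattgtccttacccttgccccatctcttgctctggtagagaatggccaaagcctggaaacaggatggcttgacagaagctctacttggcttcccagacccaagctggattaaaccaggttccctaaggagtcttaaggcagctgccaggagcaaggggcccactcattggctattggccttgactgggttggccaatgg

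The values of each gene follow as CPM, scaled to TMM-adjusted library sizes and listed in the order of replicate number, which carries no meaning beyond a name. Adipoq stood at 1.49, 8.97, 9.36 and 4.15 CPM in the C mice, at 9.01, 32.3, 18.8 and 5.24 in the E mice, at 1.79, 7.35, 23.0 and 22.1 in the T mice and at 8.47, 13.8, 15.4 and 6.87 in the TE mice. The highest library (E2) held 21.7-fold more Adipoq than the lowest (C1), and the spread inside a single group was already 12.9-fold in T and 6.30-fold in C. The TE mice were the most alike, with a 2.25-fold spread. All 4 groups overlapped.

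Retn ran close to Adipoq, at 1.11, 6.75, 4.99 and 2.36 CPM in C, 5.96, 19.7, 13.1 and 4.48 in E, 1.27, 5.61, 13.4 and 11.2 in T, and 6.57, 10.4, 7.18 and 4.12 in TE. The low mice were the same as for Adipoq (C1 and T1), and so were the high mice of E and T. Cfd was at 9.36, 44.9, 51.6 and 21.1 CPM in C, 43.8, 154, 96.8 and 28.3 in E, 8.62, 39.3, 110.4 and 93.9 in T, and 42.7, 65.6, 47.7 and 24.9 in TE. E2 and E3 were above every C mouse for Adipoq, Retn and Cfd, and so were T3 and T4, whereas the other E and T mice lay inside or below the C range.

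Lep had the fewest counts of the 9, with 3 to 59 counts in a library. Its levels were 0.117, 0.723, 0.917 and 0.330 CPM in C, 0.473, 1.01, 1.49 and 0.270 in E, 0.0865, 0.304, 0.552 and 0.911 in T, and 0.869, 0.278, 0.860 and 0.241 in TE. In contrast to the other hormones no T mouse exceeded the highest C mouse, and E3 rather than E2 was the highest library. At such counts the order of the mice is less firm than for the other genes.

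Both droplet genes had the pattern of Adipoq. Plin1 had the widest range of the 9, 41.7-fold, at 0.262, 2.95, 2.78 and 0.797 CPM in C, 2.26, 10.9, 6.93 and 1.30 in E, 0.519, 2.38, 5.84 and 4.83 in T, and 3.29, 5.26, 3.74 and 0.642 in TE. Cidec was at 1.78, 9.08, 5.04 and 2.77 CPM in C, 6.67, 26.2, 14.2 and 5.15 in E, 2.28, 5.94, 21.7 and 13.6 in T, and 8.20, 9.64, 13.97 and 5.51 in TE. For both genes C1 and T1 were the lowest of their groups and E2 the highest of all.

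Fabp4 was the exception. Its levels were 410.3, 504, 385 and 442 CPM in C, 386, 528, 455 and 428 in E, 445, 383, 528 and 395 in T, and 447, 402, 474 and 386 in TE. The whole range over 16 mice was 1.38-fold, and C1 and T1, which were lowest for the hormones, were in the middle of their groups. A marker that the label counts as an adipocyte gene thus did not share the pattern of the other 8 in these muscles. The listed endothelial genes summed to 598 to 884 CPM and the macrophage genes to 37.3 to 106 CPM, and their part in the Fabp4 level was not tested.

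Among the enzymes, Scd1 was at 23.6, 112.9, 54.4 and 37.7 CPM in C, 96.4, 445, 259 and 109 in E, 23.9, 79.1, 87.7 and 174 in T, and 116, 283, 211 and 83.1 in TE. The trained group had the higher mean in both pairs of groups, and among tumor-bearing mice TE2 and TE3 exceeded every T mouse. Cyp2e1 was at 4.43, 25.3, 31.3 and 11.7 CPM in C, 18.8, 115.7, 65.2 and 17.4 in E, 9.61, 24.0, 87.2 and 44.9 in T, and 34.3, 33.4, 44.4 and 17.6 in TE. Cyp2e1 is also a liver gene. The 8 listed hepatocyte genes summed to between 0.216 and 1.74 CPM in a library, with Cyp2c29 at 0 counts in all 16. The albumin gene Alb, which is on that list, had 2 to 53 counts and an r of 0.77 with the fat score defined further on, and its part in the Cyp2e1 level was not tested.

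**Figure D1:**
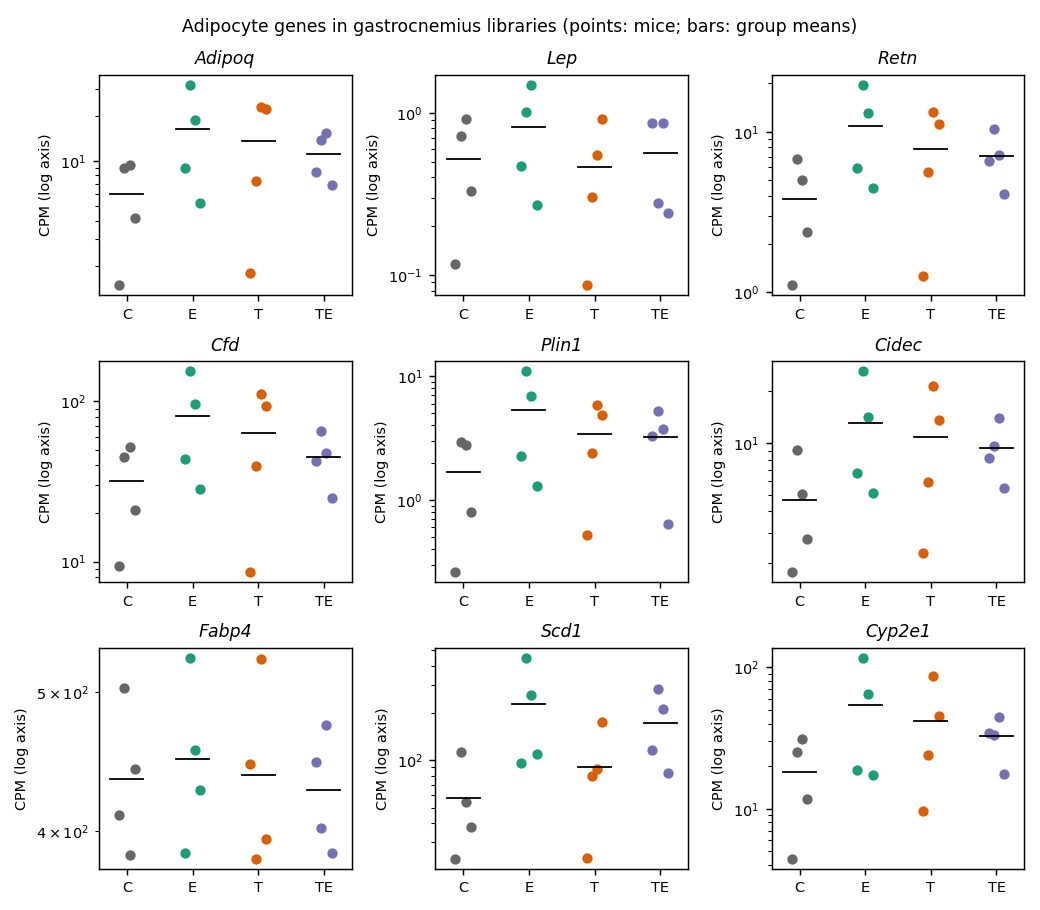
CPM of each of the 9 genes on a log axis, by group, with 1 point per mouse and a bar at the mean of 4 mice. The groups overlap for all 9 genes, and Fabp4 spans a 1.38-fold range where Plin1 spans 41.7-fold.

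Levels between genes can be compared only per length, for which FPKM, which divides counts by gene length and library total, was used. Fabp4 had by far the highest mean FPKM over 16 mice (491, range 422 to 600.4). It was followed by Cfd (60.3), Scd1 (28.5), Cyp2e1 (20.9), Adipoq (9.60), Retn (5.78), Cidec (5.43), Plin1 (1.67) and Lep (0.183). Ranges of neighbours in this order overlapped from Cfd downward, whereas the lowest Fabp4 value was above the highest Cfd value (169). In FPKM Adipoq was 4.92 ± 3.19 in C, 13.6 ± 9.95 in E, 11.0 ± 8.68 in T and 8.91 ± 3.101 in TE (mean ± SD, n = 4 each). The SD was large beside the mean in every group.

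Across the libraries, 8 of the 9 genes went up and down as a block. For each mouse the log2 CPM of each gene was taken relative to that gene's mean over 16 libraries and averaged over the 9 genes. On this log2 scale E2 (1.67), E3 (1.14), T3 (0.98) and T4 (0.85) were the highest mice, and C1 (-2.04), T1 (-1.76), C4 (-1.03) and TE4 (-0.63) the lowest. The score ranged from -2.04 to 0.20 in C, from -0.47 to 1.67 in E, from -1.76 to 0.98 in T and from -0.63 to 0.62 in TE, so all groups overlapped. C1 was the lowest of its group for 8 of the 9 genes, T1 for 8, TE4 for 9 and E4 for 7, whereas E2 was the highest of its group for 8 and T3 for 7.

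Summed without Fabp4, the other 8 genes made up 42.2 to 212 CPM in C, 171 to 805 in E, 48.1 to 366 in T and 143 to 421 in TE. As a share of all counts this was between 0.00406% in C1 and 0.0816% in E2. Taken from the mean log2 CPM of these 8 genes, the lowest and the highest mouse of a group differed by a fold of 5.59 in C, 5.19 in E, 8.28 in T and 2.59 in TE.

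Pearson correlations of log2 CPM over the 16 libraries are given as a description, since the libraries share the tissue and the genes were chosen together. The 36 pairs of the 9 genes had a median r of 0.87 (0.30 to 0.98). Without Fabp4 the median of 28 pairs was 0.94, and without Fabp4 and Scd1 the median of 21 pairs was 0.95. With Fabp4 left out, Adipoq and Retn had the highest median r with the other 7 genes (0.96 each), and Lep (0.80) and Scd1 (0.86) the lowest. Fabp4 itself had a median r of 0.36 with the other 8. Taken as deviations from the group means, the medians were alike (0.38 for Fabp4 and 0.89 for Scd1), so the block was present inside the groups and not only between them.

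**Figure D2:**
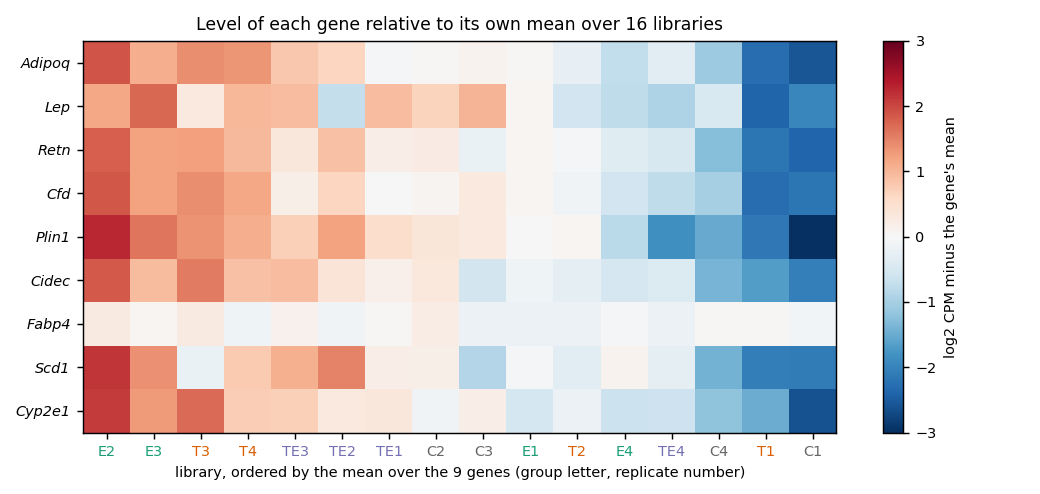
Color gives log2 CPM of each gene minus that gene's mean, with the 16 libraries ordered from left to right by the mean over the 9 genes and library names colored by group. The libraries run from E2 (1.67) to C1 (-2.04), all groups are interspersed, and the Fabp4 row is nearly flat.

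By the same measure, the genes outside the set whose pattern was most like it were ranked, again as a description over 16 libraries. Of 14740 genes, 11 had an r above 0.9 with the score and 58 above 0.8, where the median gene had 0.0089. Cdo1, a cysteine-degrading enzyme, was first (r = 0.99). It was at 1.22 CPM in C1 and 20.2 CPM in E2. Next came the glutamine transporter Slc1a5 (0.97), Ces1f (0.96), the glycogen phosphorylase Pygl (0.95), Mrap (0.95), Lgals12 (0.94), Slc7a10 (0.94), Nat8l (0.93), Fasn (0.91), Car5b (0.91) and Cyp4v3 (0.90). Prkar2b (0.90), Trf (0.89), Arxes2 (0.89) and Nrg4 (0.89) completed the 15 with the highest r. Of these 15, Fasn (13.7 to 248 CPM) and Slc1a5 (11.98 to 33.3 CPM) had the highest mean levels, and Slc1a5 moved over a much narrower range than the others at its rank. Within groups Cdo1 kept an r of 0.99.

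A further 51 white adipocyte genes, listed by role, were divided in their relation to the score. Of the 51, 13 had an r above 0.8 with the score, 17 had an r below 0.3, and the median was 0.52. Among the 12 genes of triglyceride and fatty acid synthesis, Fasn (0.91), Acaca (0.85) and Agpat2 (0.81) followed the score, whereas Gpam (-0.42) and Me1 (-0.10) did not. None of the 8 droplet and lipolysis genes reached 0.8, with Pnpla2 at 0.34, Lipe at 0.47 and Plin4 at 0.21. The insulin-dependent glucose carrier Slc2a4, which muscle makes in quantity (mean 755 CPM), was at -0.69. Of the transcription factors Cebpa was at 0.87 and Pparg at 0.52. The secreted Hp (0.83) and Rbp4 (0.84) and the adrenergic receptor Adrb3 (0.82) were in the upper part.

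Between tumor-free trained and untrained mice (E vs C), which asks what training does without a tumor, all 9 genes had a higher mean in E. The differences ran from a log2 fold change of 0.05 ± 0.11 for Fabp4 to 1.99 ± 0.60 for Scd1 (estimate ± SE), with a median of 1.48 beside 0.0033 for all genes tested. Adipoq was higher by 1.44 ± 0.66, Retn by 1.502 ± 0.60, Cfd by 1.34 ± 0.64, Plin1 by 1.65 ± 0.78, Cidec by 1.48 ± 0.62, Cyp2e1 by 1.57 ± 0.67 and Lep by 0.63 ± 0.69. None of the 9 passed an adjusted p of 0.05 in edgeR's quasi-likelihood test, where 0.0881% of all genes did (13 genes). The lowest adjusted p was that of Scd1 (0.173 by edgeR), followed by Retn (0.286) and Cidec (0.299). At an unadjusted p under 0.05 it was 6 of the 9, namely Scd1, Retn, Cidec, Cyp2e1, Adipoq and Plin1, beside 14.2% of all genes (2092). These 6 rose and fell together across the libraries, so they are not 6 separate results. DESeq2 called 0 of the 9, and 4 of them at its unadjusted p. For none of the 9 did the CPM of the E and C mice separate, where 9.08% of all tested genes had no overlap.

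These differences rested mainly on E2 and E3. Both exceeded every C mouse for 8 genes, and for Fabp4 only E2 did, while E1 and E4 lay within the C range for all 9. Without E2 the median difference was 0.90, and without C2 it was 1.77, on the log2 scale. Summed genes of some other tissues were higher in E in the same comparison. The 8 tendon genes summed to 77.0 to 92.6 CPM in C and 153 to 257 in E without overlap, and Chad, Fmod and Tnmd were called among the 13. The 10 progenitor and fibroblast genes summed to 1030 to 1396 CPM in C and 1452 to 1838 in E, again without overlap. None of these 10 was called, and 6 were at an unadjusted p under 0.05, beside 14.2% of all genes. The tendon list had a median r of 0.40 with the fat score and the progenitor list 0.42, and their part in the result was not tested.

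In untrained mice (T vs C), which asks what the tumor does, 8 of the 9 genes had a higher mean in T. Cidec was higher by 1.22 ± 0.62, Cyp2e1 by 1.19 ± 0.67, Adipoq by 1.18 ± 0.66, Retn by 1.04 ± 0.61, Plin1 by 1.00 ± 0.78, Cfd by 0.99 ± 0.64 and Scd1 by 0.67 ± 0.59 on the log2 scale (± SE). Fabp4 was at 0.01 ± 0.11 and Lep at -0.17 ± 0.70. None passed the adjusted threshold, where 0.678% of all genes did (100 genes), and the lowest adjusted p among the 9 was 0.391 for Cidec in edgeR's test. None had an unadjusted p under 0.05 either, where 14.2% of all genes did (2093), and DESeq2 called 0 of the 9. The groups overlapped for all 9, with 6.86% of all genes showing no overlap. The T group held both T3 and T4, among the highest mice, and T1, the second lowest of the 16, so its mean rested on a wide spread. The 8 macrophage genes summed to 54.7, 56.9, 106 and 103 CPM in T and to 37.3 to 71.6 CPM in C, so T3 and T4 were above every C mouse here too. All 8 had a higher mean in T (median 0.77 on the log2 scale), with 5 of 8 at an unadjusted p under 0.05, beside 14.2% of all genes, and none called. Their part in the result was not tested. Without T3 the median difference fell from 1.00 to 0.60.

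Training in tumor-bearing mice (TE vs T) gave differences smaller than their SE for every gene of the set except Scd1. With SEs of this size, a difference of either sign is not excluded. Adipoq was at -0.29 ± 0.64, Cfd at -0.48 ± 0.63, Cyp2e1 at -0.36 ± 0.65, Cidec at -0.22 ± 0.59, Retn at -0.15 ± 0.59, Plin1 at -0.07 ± 0.75, Fabp4 at -0.03 ± 0.11 and Lep at 0.27 ± 0.70. Scd1 was the largest in size at 0.93 ± 0.58 (adjusted p = 0.896 by edgeR). No gene of the 14749 was called here, which is 0%, and at an unadjusted p under 0.05 it was 5.88% (867 genes) and 0 of the 9. DESeq2 called 7 genes and 0 of the 9. For all 9 the mice overlapped, as against 2.58% of all genes without overlap. The sign of the median hung on single T mice, at 0.31 without T3 and -0.51 without T1.

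**Figure D3:**
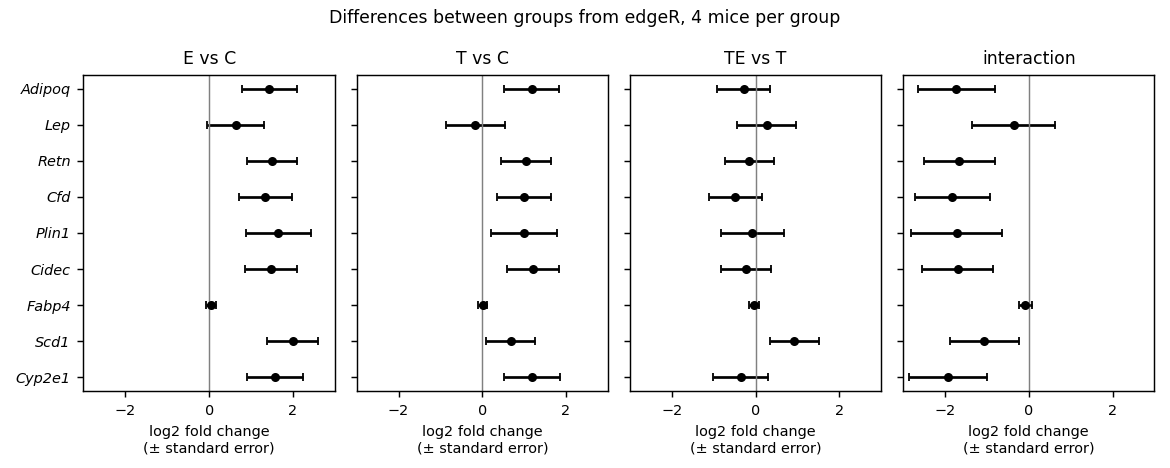
Points are log2 fold changes from edgeR and bars are standard errors, with 4 mice per group, for E vs C, T vs C, TE vs T and the interaction of tumor and exercise. The 8 genes other than Fabp4 lie between 0.63 and 1.99 in E vs C, whereas Fabp4 stays within 0.08 of 0 in all 4 panels and has short bars.

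Ordered by mean CPM, the groups ran C, TE, T, E for 6 of the 9 genes. C was lowest for 7 and E was highest for 9. Scd1 had TE above T, Lep had T lowest, and Fabp4 had TE lowest. All 27 pairs of neighbouring groups in these orders overlapped, so the order of the means is not an order of the mice.

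Averaged over both training states, the tumor main effect ran from -0.35 ± 0.49 (Lep) to 0.37 ± 0.43 (Cidec). It averages differences of opposite sign for most of the set. In T vs C, 8 of the 9 had a higher mean in T. Among trained mice, mean CPM in TE was below that in E for all 9, at 0.56 (Cfd) to 0.95 (Fabp4) of the E mean. None of the 9 was called, beside 1.36% of all genes (201), and none had an unadjusted p under 0.05, beside 14.2% (2097). Averaged over both tumor states, the exercise main effect was above 0 for all 9, with a median of 0.61 and Fabp4 at 0.006 ± 0.081. In TE vs T only 2 of the 9 were higher in trained mice (median -0.15), so for most genes the sign came from E vs C. Scd1 was again the highest at 1.46 ± 0.42 (adjusted p = 0.275 by edgeR), and it was the only one of the 9 with an unadjusted p under 0.05, beside 10.8% of all genes (1586). At the adjusted threshold 0.00678% of genes were called (1 gene), none of them in the set, and DESeq2 called 97 genes but 0 of the 9.

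The interaction term, which is the difference TE minus T less the difference E minus C, was below 0 for all 9 with a median of -1.70. It was -1.93 ± 0.94 for Cyp2e1, -1.83 ± 0.90 for Cfd, -1.73 ± 0.92 for Adipoq, -1.72 ± 1.08 for Plin1, -1.70 ± 0.85 for Cidec, -1.66 ± 0.84 for Retn, -1.07 ± 0.82 for Scd1, -0.36 ± 0.98 for Lep and -0.08 ± 0.16 for Fabp4. None was called and none had an unadjusted p under 0.05 (lowest adjusted p = 0.546 by edgeR for Cyp2e1). Of all genes 0% were called, 9.21% had an unadjusted p under 0.05 (1358), and DESeq2 called 21 genes but 0 of the 9. Lists of other tissues moved in this term too, and their part in the result was not tested. At an unadjusted p under 0.05 it was 7 of 8 tendon genes (median -1.65) and 5 of 10 progenitor and fibroblast genes (median -0.26). The lymph node list went the other way, with 9 of 14 (median 4.49). The term is built from the same 4 group means as the other comparisons, so its values are not additional to those above.

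Since 8 genes shared a block, each gene was also expressed per count of Adipoq in the same library, which removes what Adipoq itself does. Retn and Cfd were nearly proportional to Adipoq, with ratios of 0.465 to 0.856 (a 1.84-fold range) and of 3.09 to 6.29 (2.04-fold) over 16 mice. Cidec had a 2.36-fold range, Cyp2e1 2.64-fold, Plin1 4.15-fold, Lep 5.07-fold, Scd1 5.47-fold and Fabp4 16.9-fold. Retn and Cfd thus kept nearly fixed proportions to Adipoq while Adipoq itself moved over a 21.7-fold range, and Fabp4 did not.

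The Scd1 ratio was 15.9, 12.6, 5.81 and 9.09 in C, 10.7, 13.8, 13.8 and 20.8 in E, 13.4, 10.8, 3.81 and 7.88 in T, and 13.7, 20.6, 13.7 and 12.1 in TE. Its median was 9.93 in the 8 untrained mice (3.81 to 15.9) and 13.8 in the 8 trained mice (10.7 to 20.8), with overlap. The 3 lowest ratios were those of C3, T3 and T4, all untrained, and the highest that of E4, which was among the mice with little Adipoq. With the log2 CPM of Adipoq as a covariate in the edgeR fit, an alternative chosen after seeing the data, Scd1 differed by 0.84 ± 0.31 in E vs C and by 0.91 ± 0.28 in TE vs T. As a main effect of exercise this was 0.88 ± 0.21 (adjusted p = 0.301 by edgeR), so that it did not pass after adjustment over all genes. In that fit 0.00678% of all genes were called for the exercise main effect (1 gene), and the count in E vs C was 0%, with 1202 genes at an unadjusted p under 0.05.

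The Lep ratio was 0.0784, 0.0806, 0.0980 and 0.0795 in C and 0.0484, 0.0414, 0.0240 and 0.0413 in T, so the 4 T mice lay below the 4 C mice. It was the only one of the 8 ratios without overlap in T vs C, where 0.495% of all genes had ratios to Adipoq without overlap. In E it was 0.0525, 0.0313, 0.0795 and 0.0515, and in TE 0.103, 0.0202, 0.0557 and 0.0350, overlapping C and T. With Adipoq as covariate Lep differed by -1.09 ± 0.50 in T vs C (adjusted p = 0.374 by edgeR). The T1 value rests on 3 Lep counts and the C1 value on 4.

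**Figure D4:**
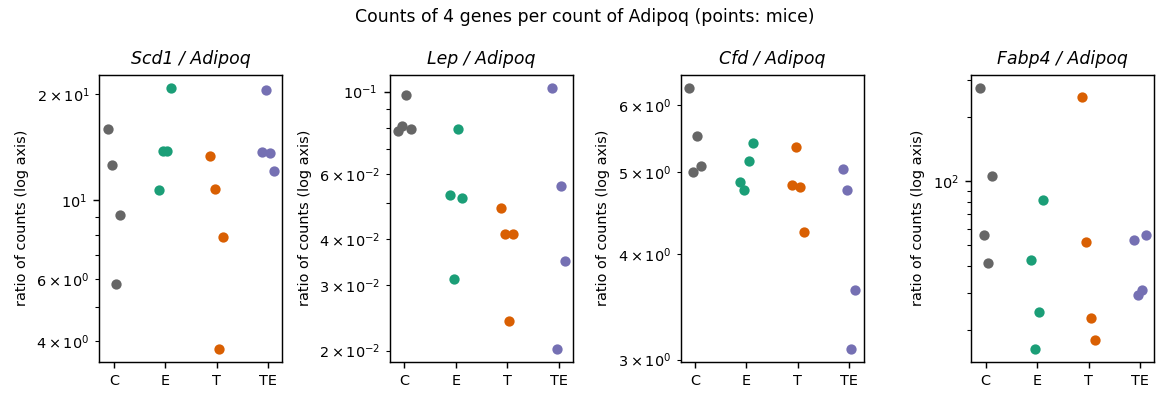
Counts of Scd1, Lep, Cfd and Fabp4 per count of Adipoq in the same library, on log axes that differ between panels, with 1 point per mouse. The Cfd ratio stays between 3.09 and 6.29, the Lep ratio of the 4 T mice is below that of the 4 C mice, and the Fabp4 ratio ranges from 16.4 to 276.

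In E vs C, 41 of the 51 other white adipocyte genes had a higher mean in E (median 0.38). None was called, beside 0.0881% of all genes, and 17 were at an unadjusted p under 0.05, beside 14.2% of all genes. Fasn, the enzyme upstream of Scd1 in fatty acid synthesis, was at 2.05 ± 0.62 (adjusted p = 0.170 by edgeR). In T vs C, 36 were higher (median 0.22), 1 was called, beside 0.678% of all genes, and 13 were at an unadjusted p under 0.05, beside 14.2%. In TE vs T, 28 were higher (median 0.02), none was called, beside 0% of all genes, and 4 were at an unadjusted p under 0.05, beside 5.88%. The called gene was Srebf1, a regulator of lipid synthesis, which rose by 0.72 ± 0.12 (adjusted p = 0.0111 by edgeR) and whose r with the fat score was 0.10. It was also the only gene of the 51 called for the tumor main effect, where 1.36% of all genes were.

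Genes that act with the secreted members were read from lists that were drawn up with earlier results of these data known. Of 10 adipokine receptor and signaling genes, Adipor2, an adiponectin receptor, rose with the tumor as a main effect by 0.18 ± 0.04 (adjusted p = 0.0313 by edgeR), and no other of the 10 was called in any contrast. Over all genes 1.36% were called for that main effect. Adipor1 averaged 279 CPM with an r of -0.35 with the score, and the leptin receptor Lepr 4.22 CPM with an r of 0.54. Socs3, which damps leptin receptor signaling, was at 1.07 ± 0.35 in T vs C (adjusted p = 0.172 by edgeR). Of the 5 tested complement genes that act with Cfd, Cfb, its substrate, rose in the tumor main effect by 1.09 ± 0.24 (adjusted p = 0.0277 by edgeR), beside the same 1.36% of all genes, and no other gene of that list was called in any of the 6 contrasts. In T vs C all 5 had a higher mean in T (median 1.06), with C3ar1 at 1.49 ± 0.43, Cfb at 1.29 ± 0.34 and C3 at 1.06 ± 0.34. At an unadjusted p under 0.05 it was 4 of the 5 in T vs C and 3 in the tumor main effect, each beside 14.2% of all genes.

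Lists of other cell types that a muscle sample can hold are given beside these results, by their summed CPM, and their part in the fat block was not tested. Keratinocyte genes summed to 0.989 to 2.60 CPM, with Krt5 at 0 counts in all 16. The lymph node list ranged from 5.77 to 31.5 CPM in 13 mice and reached 51.8 in E1, 63.2 in C3 and 172 in TE4, and TE4 was among the lowest mice for fat genes. At an unadjusted p under 0.05 it was 7 of its 14 tested genes in T vs C (median -3.09) and 11 in TE vs T (median 3.79). Of all genes it was 14.2% and 5.88%, and none of that list was called. Of the 8 endothelial genes, 5 were at an unadjusted p under 0.05 in T vs C, with 4 of the 8 higher in T. Schwann cell genes summed to 221 to 735 CPM and macrophage genes to 37.3 to 106 CPM. All 8 Schwann cell genes had a lower mean in T vs C (median -0.51 on the log2 scale) and in the tumor main effect, with 4 and 5 of them at an unadjusted p under 0.05, beside 14.2% of all genes in each, and none called. The endothelial receptor gene Kdr fell in T vs C (-0.68 ± 0.15, adjusted p = 0.0457 by edgeR) and the progenitor gene Ly6a rose (0.65 ± 0.15, adjusted p = 0.0476 by edgeR), as the genes called on those lists. In the tumor main effect Kdr and Emcn fell and Ly6a rose. The tendon genes Tnmd (-0.86 ± 0.18, adjusted p = 0.0241 by edgeR) and Kera (-1.13 ± 0.26, adjusted p = 0.0421 by edgeR) fell in it as well. Of all genes 0.678% were called in T vs C and 1.36% in the tumor main effect. All 8 macrophage genes also had a higher mean in the tumor main effect, with 5 at an unadjusted p under 0.05, beside 14.2% of all genes, and none called in any contrast. Neutrophil genes summed to 1.51 to 52.0 CPM, and 5 of the 8 tested rose in T vs C, where 0.678% of all genes were called. Median r with the score was 0.07 for lymph node, 0.11 for endothelial, 0.43 for Schwann cell, 0.51 for macrophage and -0.34 for muscle fiber genes.

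**Figure D5:**
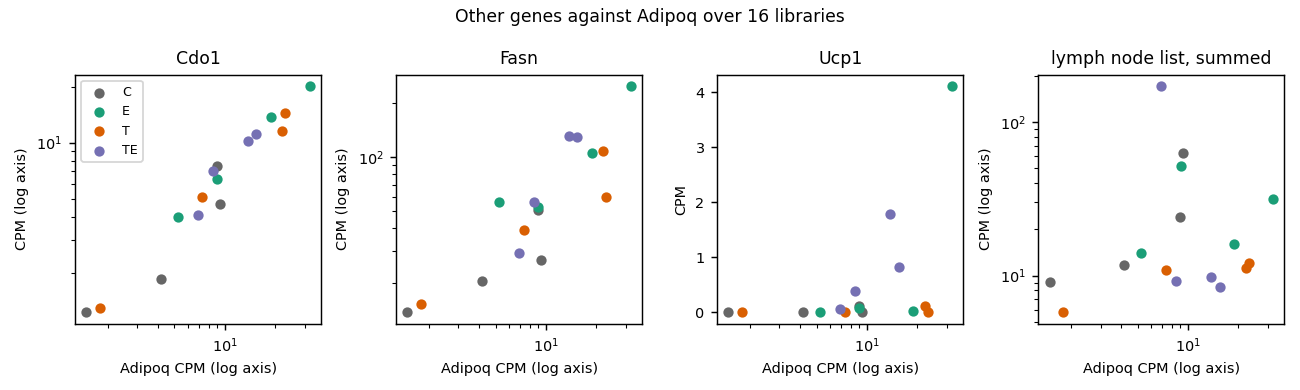
Each point is 1 mouse colored by group, with Adipoq CPM on a log x axis and, on the y axes, CPM of Cdo1, Fasn and the summed lymph node list on log axes and of Ucp1 on a linear axis. Cdo1 runs from 1.22 to 20.2 CPM along with Adipoq, whereas the lymph node sum has its highest value, 172 CPM, in a mouse with 6.87 CPM of Adipoq.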

How the data were processed

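The authors trimmed reads with fastp 0.20.1, aligned them to GRCm39 with HISAT2 2.1.0 and deposited raw counts per gene from HTSeq 0.11.2, as named in the submitters' processing notes and the paper. They also deposited FPKM, which equals counts over gene length and library total (checked for 11001 genes with more than 50 counts). Annotation release and strand setting are not given in the sources used here, and the library kit is named V5 in the paper and V6 in the labels. Of 35415 genes, 23837 had a count and 14749 passed filterByExpr. Counts were tested with edgeR 4.0.16 in R 4.3.3 (TMM, glmQLFit and glmQLFTest, 1 coefficient per group, all 16 libraries, two-sided, Benjamini-Hochberg within each contrast), after a test on simulated counts. Main effects are means of both simple contrasts. Log2 CPM used a prior count of 2. DESeq2 1.42.0, the tool of the authors, was an alternative. A count of 3 is at most 0.0875 CPM. The edgeR p-values set a difference against the variation between mice, 4 a group. That variation was estimated over all 16 libraries with information shared across genes. The members and all gene lists were chosen with earlier results of these data known. The genes named are the members, list genes and the 15 genes with the highest correlation with the member score. The tables held 0 columns of other samples. Figures were drawn with matplotlib 3.10.9.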

Additional observations from a re-analysis of the deposited data

How the results depend on the processing

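None of the 9 genes was called at an adjusted p of 0.05 under any alternative run (DESeq2, its size factors in edgeR, no filter, only the groups compared, a replicate block, a robust fit, Adipoq as covariate, each mouse left out, a fold threshold). At the unadjusted p, 6 of the 9 passed in E vs C, against 7 without the filter, with only these groups fitted or with the replicate block, 4 in DESeq2 and 1 in the robust fit. In T vs C it was 0, against 3 without the filter and 4 with the block, for the interaction 0, against 5 and 5, and for the exercise main effect 1, against 2 with the block. Replicate numbers name different mice, and same-numbered mice did not deviate together (correlations of -0.24 to 0.21). With the replicate block the median log2 fold change of the 9 was 1.15 in T vs C, -0.09 in TE vs T, 1.53 in E vs C, 0.36 and 0.69 for the tumor and exercise main effects and -1.58 for the interaction, with 0 called. With Adipoq as a covariate, chosen after seeing the data, the median of the other 8 was -0.0598 in T vs C, 0.127 in E vs C and -0.0938 for the interaction, since that fit takes out what moves with Adipoq. The other 132 medians and 1195 single-gene values moved by less than the SD between mice of a group, pooled over the groups. That limit is not the SE of an estimate, and signs could change within it. Cyp2e1 in TE vs T was at -0.36 ± 0.65 with all mice and at 0.31 without T3. The 14 single-gene values that moved more than this SD were all under that covariate. Leaving out 1 mouse, the medians ranged from 0.60 to 1.39 in T vs C, -0.51 to 0.31 in TE vs T, 0.90 to 1.77 in E vs C, -0.06 to 0.44 and 0.34 to 0.87 for the main effects of tumor and exercise, and -2.04 to -1.11 for the interaction. Over all genes, the calls in E vs C were 13 in edgeR, 252 in DESeq2, 183 with only these groups fitted, 45 without the filter, 25 with the block and 21 with DESeq2's size factors. In T vs C they were 100 in edgeR, 423 in DESeq2, 174 without the filter and 30 with only these groups fitted. The cause of these differences was not tested. Lep, with 3 to 59 counts, and Plin1, with 9 to 401, are limited by depth.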

Other observations

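The 6 listed brown adipocyte genes differed in which mice held them. Ucp1, the uncoupling protein of brown fat, had 151 counts in E2, 64 in TE2, 30 in TE3 and 14 in TE1, and at most 4 in each of the other 12 mice. Elovl3, which brown fat also makes, had 19 counts in E2, 13 in TE2 and 11 in TE3. Cidea, which is listed for white and brown fat, had 211 counts in E2, 130 in TE3 and 109 in TE2. E3, T3 and T4, which followed E2 in the fat score, had 26 to 62 counts of Cidea and at most 4 of Ucp1. The other listed genes were spread over all mice, with Dio2 at 2.51 to 6.88 CPM, Zic1 at 0.289 to 1.17 CPM and Otop1 at 0.497 to 2.21 CPM, and E2 had 3.14, 0.627 and 2.15 CPM of them. E2, TE3 and TE2 ranked 1, 5 and 6 in that score. The r with the fat score was 0.58 for Ucp1, with a median of 0.30 over the tested brown list genes, beside a median of 0.52 for the white list, and none of the 5 tested was called in E vs C, TE vs T or the exercise main effect, while Dio2, an enzyme that activates thyroid hormone, rose by 0.57 (adjusted p = 0.0485 by edgeR) in the tumor main effect, where 1.36% of all genes were called.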
